A study of Mus musculus with 2 samples.

Results

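Interferon-stimulated genes are genes whose transcription rises after a cell senses an interferon. A list of 37 of them was followed through spleen cells of control and tumor-bearing mice, and all 37 had a row in both single-cell expression matrices, which hold 27998 gene rows each. The members were taken from the list by gene symbol. The study sorted CD11b+ Gr1+ cells, a phenotype shared by neutrophils and monocytes, from spleen and profiled them with the Chromium 3′ v2 droplet assay, which counts messenger RNA molecules as unique molecular identifiers (UMIs). The control library pooled the spleens of 5 wild-type FVB/n mice, and the other pooled the spleens of 3 PyMT mice bearing tumors, a transgenic model in which the polyoma virus middle T antigen drives tumor growth. Age, sex and the promoter of the transgene are not given in the sources used here. Because each group is 1 pooled library, no difference between the groups has a replicate check, and no p-value is given. Every interval below covers counting error only, at 95%, and says nothing about variation between mice, and reads amplified from 1 molecule count once.

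The interferons act through 2 main receptor systems. Type I interferons bind IFNAR1 and IFNAR2, and the kinases JAK1 and TYK2 then activate a complex that includes STAT2 and IRF9 and binds the interferon-stimulated response element (ISRE). Interferon gamma binds IFNGR1 and IFNGR2, and JAK1 and JAK2 then switch on genes that carry the gamma-activated site (GAS). The GTPases of the GBP and IRG families are known as strongly induced by interferon gamma, whereas the oligoadenylate synthetase (OAS) and IFIT families are classical type I targets, although the 2 programs overlap widely. In the spleen, monocytes, dendritic cells and B cells all respond to interferons, and neutrophils express many of the same genes at low levels.

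The wild-type library held 5491 cells with 42542700 UMIs, and the PyMT library held 9155 cells with 73435307 UMIs, of which 9150 cells were kept. Median depth was 5668 UMIs per cell in wild type, PyMT cells had a median of 7063, and 72 cell barcodes occurred in both libraries. Cells were put into 7 classes by transcripts that are no members. A neutrophil had at least 10% of its UMIs from S100a8 and S100a9, the calprotectin genes, and fewer than 2 UMIs of the B cell receptor genes Cd79a and Cd79b, and the class held 3980 wild-type and 5488 PyMT cells. Neutrophils were divided by Camp, a granule gene that is high in immature and falls in mature cells. Camp-high cells had at least 4% of their UMIs from Camp (3456 and 1619 cells), Camp-intermediate cells had 1% to 4% (468 and 1812 cells) and Camp-low cells had under 1% (56 and 2057 cells). A monocyte had under 5% S100a8 and S100a9 and at least 2 UMIs of Csf1r and Ccr2. Monocytes with 0 UMIs of Ace, Treml4 and Adgre4 are called Ace-set-negative (215 and 820 cells), and those with at least 2 are called Ace-set-positive (264 and 452 cells), the 3 genes being marks of nonclassical monocytes. B cells had under 5% S100a8 and S100a9 and at least 3 UMIs of Cd79a and Cd79b (375 and 1152 cells). In all, 718 wild-type and 1296 PyMT cells met no rule, and 61 and 58 cells counted both as a monocyte and as a B cell.

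The marker genes bear on how these classes are read. All 9 neutrophil markers were present in neutrophils of both libraries. The 6 genes that mark nonclassical monocytes summed to 116 and 38.2 CPM (UMIs scaled to a class total of 1000000) in wild-type and PyMT neutrophils and to 302 and 46.4 CPM in Camp-intermediate neutrophils, with 6 of 6 higher in wild type and none at 0 in both. Conventional dendritic cell markers summed to 17.5 and 4.03 CPM in neutrophils, with 3 of 6 higher in wild type. The 6 plasmacytoid dendritic cell markers summed to 359.8 and 143 CPM in Ace-set-negative monocytes, with 6 of 6 higher in wild type. Of these, the defining genes Siglech and Cox6a2 had 36 and 29 UMIs in that class of wild type and 0 in PyMT. B cells held monocyte markers at 1273 and 867 CPM. Each of these sums was higher in wild type than in PyMT, and several members are abundant in monocytes and dendritic cells. In neutrophils the 6 B cell markers, at 20.2 and 31.2 CPM, and the 4 erythroid markers, at 17.1 and 154 CPM, were instead higher in PyMT for every gene of both sets, and their part in the results was not tested. Each main count is therefore also given for marker-free cells, meaning cells of the class with 0 UMIs of the markers of other lineages (32 genes for neutrophils, 19 for monocytes and 26 for B cells). This alternative was chosen after the data were seen, and it favours shallow cells. It left 2303 and 2712 neutrophils, with median depths of 5132 and 6933 UMIs, and only 39 Camp-low neutrophils of wild type. No member is among the markers, and no marker-free cell is shown to be free of RNA from other cells.

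The interferon response elements themselves can be read from the promoters of the members. RefSeq windows of 300 bases (250 before and 50 after each start, build GRCm38.p6) were found for 30 of the 37 members. Oas2, Rtp4, Usp18, Mx1, Zbp1, Dhx58 and Parp14 were not matched. The ISRE core GAAANNGAAA, searched on both strands, was in 16 of 30 members (53.3%) and in 1079 of 27025 genes (3.99%). It was in 5 of 6 GBP and IRG GTPases and in 2 of the 4 OAS family genes with a window. The GAS core TTCNNNGAA, also searched on both strands, was in 10 of 30 members (33.3%) and in 2582 of 27025 genes (9.55%). A match describes the letters only and does not show binding. The windows below are a selection of those with a match, from members named in the comparisons that follow. Capitals mark the matches to the core named on each line, and all other bases are in lower case. Oasl2 and Ifi47 had a window with neither core, and Plscr1 had a GAS core but no ISRE core. Oas1a and Gbp7 also have GAS cores outside the stretches printed. The Igtp window also holds a GAS core, which is left in lower case. Where the capitals begin with TTTC, the core lies on the other strand.
Isg15 promoter, chr4:156200855-156200916, minus strand, with 3 overlapping ISRE matches: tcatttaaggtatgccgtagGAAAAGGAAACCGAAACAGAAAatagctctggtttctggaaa
Oas1a promoter, chr5:120907526-120907565, minus strand, with 2 overlapping ISRE matches: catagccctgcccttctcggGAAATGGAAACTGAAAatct
Oas3 promoter, chr5:120777705-120777754, minus strand, with 1 ISRE match: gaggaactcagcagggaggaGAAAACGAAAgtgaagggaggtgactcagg
Trim30a promoter, chr7:104465200-104465249, minus strand, with 1 ISRE match: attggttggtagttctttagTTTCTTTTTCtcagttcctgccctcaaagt
Igtp promoter, chr11:58199502-58199551, plus strand, with 1 ISRE match: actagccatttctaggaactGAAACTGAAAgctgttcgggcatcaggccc
Gbp7 promoter, chr3:142530263-142530312, plus strand, with 1 ISRE match: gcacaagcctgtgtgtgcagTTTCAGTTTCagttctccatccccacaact
Irf1 promoter, chr11:53769904-53769952, plus strand, with 1 GAS match: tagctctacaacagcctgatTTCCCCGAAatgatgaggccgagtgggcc
Isg15, Oas1a, Oas3 and Trim30a were higher in PyMT neutrophils, whereas Igtp and Gbp7 were lower in PyMT monocytes. An ISRE core stands before members that differed between the libraries in either direction.

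Taken as 1 class, neutrophils of PyMT spleens held more interferon-stimulated transcripts than neutrophils of wild-type spleens. The 37 members summed to 497 CPM in wild type and 875 CPM in PyMT. A member is called higher or lower in a class when its level differs at least 1.5-fold (log2 0.58) between the libraries, among those with at least 50 UMIs in both libraries together. Of 35 members that met the UMI minimum in neutrophils, 15 were higher and 4 were lower in PyMT, and their median log2 ratio (PyMT over wild type) was 0.44. All ratios given from here on are log2 ratios of this kind with their counting intervals, and paired values name wild type before PyMT. Over all genes tested in neutrophils, 7.11% were higher and 42.6% were lower, with a median of −0.47. Scaling by trimmed mean of M-values (TMM) in place of class totals adds 0.45 to every neutrophil ratio, and by class it adds 0.45, 0.73 and 0.51 in Camp-high, Camp-intermediate and Camp-low cells. In marker-free neutrophils 24 of 33 members were higher and 0 were lower, with a median of 1.15, beside 10.7% higher and 26.4% lower among all genes.

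The members did not move evenly through the 3 Camp classes. They summed to 439 and 624 CPM in Camp-high, 970 and 826 CPM in Camp-intermediate and 883 and 1457 CPM in Camp-low cells. The Camp-intermediate sum was thus lower in PyMT, whereas marker-free cells of that class gave 453 and 791 CPM. In Camp-high neutrophils 9 of 32 tested members were higher and 8 lower (median −0.08), and all genes gave 3.21% higher and 41.1% lower with a median of −0.45. In Camp-intermediate neutrophils 7 of 31 were higher and 16 lower (median −0.67), beside 5.31% and 49.2% of all genes and a median of −0.57. In Camp-low neutrophils 13 of 29 were higher and 7 lower (median 0.51), beside 18.6% and 30.5% and a median of −0.23. The share of lower members was thus near the share of all genes in the Camp-intermediate and Camp-low classes and below it in the Camp-high class, while the share of higher members was above that of all genes in each. In marker-free cells fewer members met the UMI minimum, and at most 1 was lower. There were 13 higher and 0 lower of 25 in Camp-high cells (all genes 5.85% and 22.0%), 12 and 0 of 21 in Camp-intermediate cells (all genes 19.3% and 17.4%) and 13 and 1 of 23 in Camp-low cells (all genes 26.3% and 19.8%). The wild-type Camp-low class holds 56 cells and 229891 UMIs, and all 37 members together have 203 UMIs there. In PyMT the class holds 9995209 UMIs, of which 14561 are of members, so members met the UMI minimum mainly through PyMT. The Camp-low counts therefore rest on few wild-type UMIs, and marker-free wild-type Camp-low cells have 80 member UMIs in 39 cells.

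In monocytes and B cells more members were lower than higher. In Ace-set-negative monocytes 2 of 32 tested members were higher and 14 were lower in PyMT, with a median of −0.46. The plasmacytoid and conventional dendritic cell markers were higher in wild type in the same class, at 359.8 and 143 CPM and 279 and 59.9 CPM. All genes in that class gave 9.37% higher and 8.91% lower, with a median of 0.01. Ace-set-positive monocytes gave 3 higher and 7 lower of 31 (all genes 8.74% and 7.75%), and B cells 3 higher and 5 lower of 27 (all genes 9.85% and 7.43%). In marker-free cells, where the plasmacytoid markers summed to 49.3 and 84.5 CPM in the Ace-set-negative class, the 2 monocyte classes kept this direction, with 2 higher and 9 lower of 21 (all genes 14.4% and 8.18%) and 1 and 6 of 19 (all genes 12.6% and 7.53%). Marker-free B cells instead had 4 higher and 1 lower of 20 (all genes 16.8% and 3.66%).

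**Figure D1:**
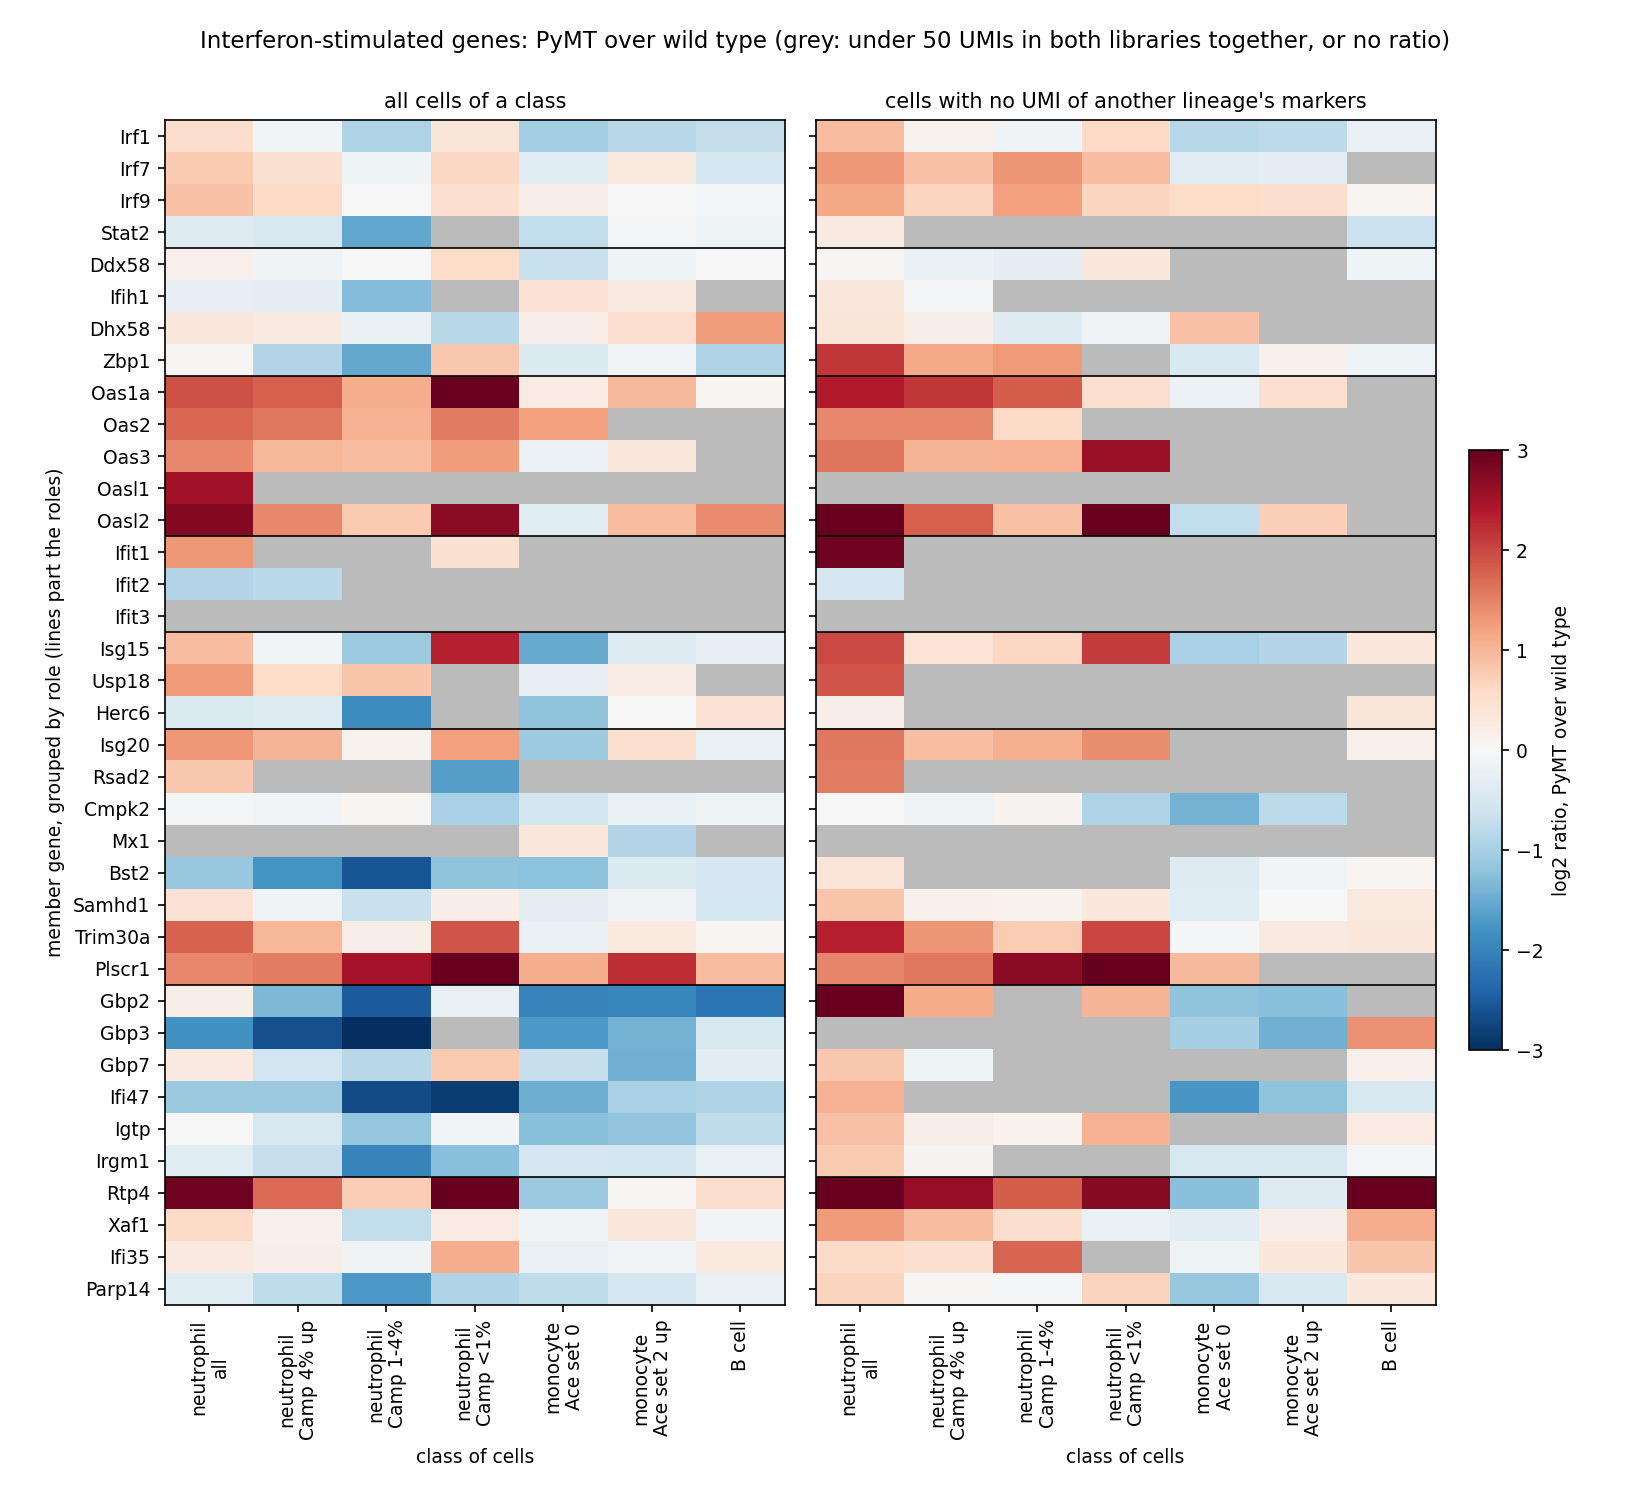
Log2 ratio of each member's level, PyMT over wild type, in 7 classes (columns) for all cells of a class (left) and for marker-free cells (right), with red higher in PyMT, blue lower, and grey for fewer than 50 UMIs or no ratio. The OAS genes with a ratio are red in every neutrophil column, the GBP and IRG GTPases with a ratio are blue in both monocyte columns, and Oas1a and Gbp2 in marker-free Camp-low neutrophils are drawn at their lower bounds because wild type had 0 UMIs.

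The transcription factors of the pathway differed in part. Irf7, which amplifies type I interferon production, was at 18.7 and 32.1 CPM in wild-type and PyMT neutrophils, log2 ratio 0.78 (0.64 to 0.92). Irf9, the DNA-binding subunit of the type I complex, was at 17.5 and 32.2 CPM, a ratio of 0.88 (0.73 to 1.02). These were the 2 of 4 members of the group past 1.5-fold in neutrophils as a whole. By Camp class, from high to low, Irf7 gave 0.47, −0.13 and 0.63, and Irf9 gave 0.59, 0.02 and 0.51. In Camp-intermediate cells 0 of the 4 factors were higher and 2 were lower. Marker-free Camp-intermediate cells instead gave 1.33 (0.49 to 2.30) for Irf7 and 1.23 for Irf9, both higher past the fold. Stat2 gave −0.44 there, under the fold. Irf1, an early target of interferon gamma, was at 70.6 and 34.6 CPM in Ace-set-negative monocytes (log2 ratio −1.03, interval −1.39 to −0.66) and 90.9 and 51.3 CPM in Ace-set-positive ones (log2 ratio −0.82, interval −1.13 to −0.51). In B cells Irf1 stood at 66.3 and 40.4 CPM (log2 ratio −0.72, interval −1.05 to −0.38). Irf1 was thus lower in PyMT in both monocyte classes and in B cells, while its neutrophil ratio of 0.54 stayed under the fold used. By Camp class Irf1 gave −0.08, −0.92 and 0.37 in Camp-high, Camp-intermediate and Camp-low cells, so that it was lower past the fold in the Camp-intermediate class. For that class TMM scaling gave −0.19 and marker-free cells gave −0.10, neither past the fold. TMM scaling gave 0.99 over all neutrophils and marker-free neutrophils gave 0.92, both past the fold and higher in PyMT. Marker-free monocytes gave −0.85 and −0.78 for Irf1, and marker-free B cells gave −0.21, which is no longer past the fold. Stat2, the type I signal transducer, was at 19.2 and 11.4 CPM in Ace-set-negative monocytes (log2 ratio −0.75, interval −1.42 to −0.03).

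The cytosolic sensors of foreign nucleic acid were mostly level in neutrophils. None of Ddx58 (the RIG-I gene), Ifih1 (the MDA5 gene), Dhx58 and Zbp1 passed 1.5-fold in either direction in the whole class. Zbp1, which senses nucleic acid in the Z form and triggers cell death, was at 11.6 and 11.9 CPM, with a ratio of 0.03 (−0.16 to 0.22). In marker-free neutrophils Zbp1 stood at 2.23 and 9.80 CPM, a ratio of 2.13 (1.57 to 2.74), so that the ratio of this gene depends on which cells are kept. Dhx58 was at 4.21 and 10.1 CPM in B cells, a ratio of 1.26 (0.17 to 2.55) on 8 and 50 UMIs.

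The OAS family was the group most uniformly higher in PyMT neutrophils. It includes enzymes that make the second messenger of RNase L after binding double-stranded RNA. Its 5 genes summed to 26.9 CPM (25.1 to 28.8) in wild type and 106 CPM (104 to 109) in PyMT neutrophils, and 5 of 5 were higher, with a median log2 ratio of 1.91. Oasl2 was at 5.76 and 38.6 CPM in wild-type and PyMT neutrophils, from 175 and 1866 UMIs, a ratio of 2.75 (2.52 to 2.98). Oas1a stood at 7.54 and 28.4 CPM (log2 ratio 1.91, interval 1.71 to 2.12), and Oas2 at 2.99 and 9.91 CPM (log2 ratio 1.73, interval 1.40 to 2.07). The counting intervals of each of these genes are far apart in the 2 libraries. Oas3 was at 10.4 and 28.4 CPM (log2 ratio 1.45, interval 1.27 to 1.63), and Oasl1, with 6 and 55 UMIs, gave 2.53 (1.31 to 4.03).

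The OAS family kept this direction in each Camp class, where 4 of 4, 4 of 4 and 4 of 4 tested genes were higher, with medians of 1.51, 0.99 and 2.14 in Camp-high, Camp-intermediate and Camp-low cells. The Camp-low count and median rest on only 10 wild-type UMIs of the whole family, and marker-free wild-type Camp-low cells had 3. Camp-high neutrophils held Oas1a at 6.77 and 23.5 CPM (log2 ratio 1.79, interval 1.54 to 2.05) and Oasl2 at 4.59 and 12.4 CPM (log2 ratio 1.43, interval 1.11 to 1.76). In Camp-low neutrophils Oasl2 was at 17.4 and 114 CPM (log2 ratio 2.71, interval 1.35 to 4.59), from 4 and 1139 UMIs. The PyMT level of Oasl2 was therefore about as far above wild type in the Camp-low class as over all neutrophils, with a wider interval. In marker-free neutrophils Oasl2 was at 3.72 and 41.7 CPM (log2 ratio 3.49, interval 3.07 to 3.93) and Oas1a at 5.29 and 27.4 CPM (log2 ratio 2.37, interval 2.02 to 2.75). Oas2, Oas3 and Oas1a lie between bases 120730333 and 120907521 of chromosome 5 (GENCODE M21 on GRCm38), and Oas1a has near-identical paralogs in that cluster, so reads that fit several copies may have been lost from its count.

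Outside neutrophils 2 of 3 tested OAS genes were higher in PyMT in Ace-set-positive monocytes, and 1 of 4 higher and 0 lower in Ace-set-negative ones. The family summed to 107 CPM (89.7 to 126) in wild type and 108 CPM (100.2 to 117) in PyMT in Ace-set-negative monocytes, with overlapping intervals. In Ace-set-positive monocytes it summed to 81.7 CPM (69.2 to 95.8) in wild type and 149 CPM (136 to 162) in PyMT. There Oas1a was at 35.7 and 70.0 CPM (log2 ratio 0.97, interval 0.58 to 1.38) and Oasl2 at 27.0 and 51.1 CPM (log2 ratio 0.92, interval 0.46 to 1.40). Oas3 there gave 0.32, under the fold, and Oas2 and Oasl1 did not meet the UMI minimum. In marker-free Ace-set-positive monocytes Oasl2 was at 25.8 and 42.0 CPM (log2 ratio 0.70, interval −0.24 to 1.78), and the interval includes 0. B cells held Oasl2 at 6.84 and 18.4 CPM, a ratio of 1.42 (0.58 to 2.39), from 13 and 91 UMIs.

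The IFIT proteins, which bind viral RNA that lacks host cap marks, were too sparse for most classes. Ifit1 had 30 and 117 UMIs in wild-type and PyMT neutrophils, a ratio of 1.29 (0.71 to 1.92). Ifit2 had 81 and 70 UMIs, a ratio of −0.88 (−1.36 to −0.40). The 2 genes thus differed in direction in the same cells, although Ifit2 in marker-free neutrophils gave −0.50 (−1.35 to 0.37). Ifit3 had 29 and 14 UMIs, under the minimum, and shares sequence with its copy Ifit3b, which had 7 and 29 UMIs.

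Isg15, a ubiquitin-like modifier, and Usp18, the protease that removes it, were higher in PyMT neutrophils. Isg15 was at 12.4 and 23.6 CPM (log2 ratio 0.93, interval 0.76 to 1.10). Usp18 was at 1.38 and 3.35 CPM (log2 ratio 1.28, interval 0.78 to 1.80). Herc6, the mouse ligase that attaches ISG15, was at 3.22 and 2.38 CPM (log2 ratio −0.44, interval −0.84 to −0.03) and not past the fold. In Ace-set-negative monocytes Isg15 was at 107 and 37.7 CPM, a ratio of −1.50 (−1.81 to −1.19), and Herc6 at 21.5 and 9.34 CPM, a ratio of −1.20 (−1.88 to −0.50). The neutrophil ratio of Isg15 was not shared by the Camp classes, which gave −0.08 in Camp-high, −1.10 in Camp-intermediate and 2.34 in Camp-low cells. Marker-free cells of these classes gave 0.42, 0.63 and 2.09 in the same order. In marker-free cells the ratio of Isg15 was 1.97 (1.63 to 2.32) in neutrophils and −0.97 (−1.61 to −0.28) in Ace-set-negative monocytes. Marker-free Ace-set-positive monocytes gave −0.89 (−1.50 to −0.25). All cells of that class gave −0.39 (−0.69 to −0.09), where 38 of the 239 PyMT UMIs came from 1 cell.

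Among the other antiviral effectors, Trim30a and Plscr1 were the strongest in neutrophils. Trim30a, a regulator of innate signalling with close copies beside it, was at 13.1 and 44.6 CPM, a ratio of 1.76 (1.61 to 1.92). Plscr1, a phospholipid scramblase with antiviral activity, was at 73.1 and 199 CPM, a ratio of 1.45 (1.38 to 1.52). Plscr1 was the only member higher in PyMT in all 7 classes, with ratios from 0.92 in B cells to 3.23 in Camp-low neutrophils. In monocytes and B cells neutrophil RNA bears on this value, since S100a8 and S100a9 stood there at 2.82% to 4.62% of their neutrophil level. At that share Plscr1 from neutrophils would amount to 23.9% to 47.7% of its level in the wild-type classes and 43.1% to 71.4% in the PyMT classes, and its part in the ratio was not tested. Isg20, an exonuclease of RNA, was at 3.88 and 7.91 CPM in Camp-high neutrophils (log2 ratio 1.03, interval 0.66 to 1.40) and at 18.4 and 8.70 CPM in Ace-set-negative monocytes (log2 ratio −1.08, interval −1.80 to −0.32). The second value rests on 24 and 54 UMIs. Cmpk2, a nucleotide kinase, was level in neutrophils (log2 ratio −0.04, interval −0.19 to 0.11), and Samhd1, which depletes nucleotides, was at 134 and 181 CPM (log2 ratio 0.44, interval 0.38 to 0.49). Rsad2, which encodes viperin, was at 1.18 and 2.07 CPM (log2 ratio 0.80, interval 0.24 to 1.40). Mx1, a dynamin-like antiviral GTPase, had 18 and 26 UMIs in neutrophils and met the UMI minimum only in monocytes, where the Ace-set-negative class gave 0.33 (−0.70 to 1.54) and the Ace-set-positive class −0.87 (−1.71 to −0.02).

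Bst2, the tetherin gene, was lower in PyMT in 5 of the 7 classes, with an interval that includes 0 in Camp-low neutrophils. It stood at 13.3 and 6.02 CPM in neutrophils (log2 ratio −1.15, interval −1.37 to −0.93), 9.58 and 2.77 CPM in Camp-high neutrophils (log2 ratio −1.79, interval −2.24 to −1.36) and 45.0 and 7.58 CPM in Camp-intermediate ones (log2 ratio −2.57, interval −2.92 to −2.22). In Ace-set-negative monocytes it was at 242 and 103 CPM (log2 ratio −1.23, interval −1.43 to −1.03). Bst2 is abundant in plasmacytoid dendritic cells, and their 6 markers moved with it in that class, at 359.8 and 143 CPM. In marker-free cells Bst2 gave 0.39 (−0.30 to 1.11) in neutrophils and −0.38 (−0.80 to 0.06) in Ace-set-negative monocytes, neither past the fold. The part of other cells' RNA in the lower Bst2 levels was not tested beyond these values.

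The GBP and IRG GTPases, which attack the vacuoles of intracellular pathogens, were the group most uniformly lower in PyMT monocytes. In Ace-set-negative monocytes the 6 genes summed to 377 CPM (345 to 412) in wild type and 147 CPM (137 to 156) in PyMT, and 5 of 6 tested genes were lower (median log2 ratio −1.36). In Ace-set-positive monocytes they summed to 432 CPM (402 to 463) in wild type and 176 CPM (162 to 189.9) in PyMT, and 5 of 6 were lower, with a median of −1.30. Gbp2 was at 93.6 and 23.2 CPM in Ace-set-negative monocytes (log2 ratio −2.01, interval −2.37 to −1.65) and at 146 and 37.9 CPM in Ace-set-positive ones (log2 ratio −1.95, interval −2.25 to −1.65). Gbp3 was at 79.0 and 24.0 CPM (log2 ratio −1.72, interval −2.09 to −1.34) and 77.9 and 29.1 CPM (log2 ratio −1.42, interval −1.80 to −1.05). Gbp2 UMIs were present in 27.9% of 215 wild-type and 13.3% of 820 PyMT Ace-set-negative monocytes, and in 39.4% of 264 and 17.3% of 452 Ace-set-positive ones. A smaller share of PyMT cells thus held the transcript. Their median depth was nevertheless higher, at 7155 beside 5594 UMIs in the first class and 7599.5 beside 6021 in the second. No class here is known to lack Gbp2, so no background share from free RNA is given.

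The remaining GTPases showed the same direction in monocytes. Ifi47 was at 96.7 and 35.1 CPM (log2 ratio −1.46, interval −1.78 to −1.13) in Ace-set-negative monocytes and at 81.7 and 41.5 CPM (log2 ratio −0.98, interval −1.31 to −0.64) in Ace-set-positive ones. Igtp stood at 47.1 and 20.9 CPM (log2 ratio −1.17, interval −1.64 to −0.71) and Gbp7 at 23.3 and 8.51 CPM (log2 ratio −1.45, interval −2.17 to −0.75) in the latter. Irgm1 was below the fold in both, at −0.50 and −0.56. In marker-free monocytes 3 of 4 and 3 of 4 tested GTPases were lower, with medians of −1.10 and −1.23. Gbp2 there was at 46.7 and 20.2 CPM (log2 ratio −1.21, interval −2.0 to −0.35) and 110.2 and 46.4 CPM (log2 ratio −1.25, interval −1.81 to −0.67). TMM scaling moves monocyte ratios by 0.06 or less. Gbp7, Gbp3 and Gbp2 lie between bases 142530342 and 142638008 of chromosome 3 in a cluster of similar genes, and their separate counts depend on how shared reads were treated.

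In neutrophils the sign for the GTPases depended on which cells were kept. Over all neutrophils they summed to 49.3 CPM (46.9 to 51.9) in wild type and 40.6 CPM (38.9 to 42.5) in PyMT, with a median of −0.17, which TMM scaling turns positive. In Camp-high cells 4 of 6 were lower (median −0.90), and in Camp-intermediate cells 6 of 6 (median −2.25). Of all genes tested in these 2 classes, 41.1% and 49.2% were lower, with medians of −0.45 and −0.57. Gbp3 was at 4.81 and 0.771 CPM in Camp-high cells (log2 ratio −2.64, interval −3.52 to −1.87) and at 23.0 and 2.01 CPM in Camp-intermediate ones (log2 ratio −3.51, interval −4.12 to −2.93). The markers of nonclassical monocytes were higher in wild type in the same classes, at 93.7 and 28.4 CPM and 302 and 46.4 CPM. In marker-free neutrophils the group summed to 14.7 CPM (12.8 to 16.9) in wild type and 38.3 CPM (35.7 to 41.1) in PyMT, and 5 of 5 tested genes were higher. Gbp2 was at 1.71 and 15 CPM there (log2 ratio 3.13, interval 2.52 to 3.81). Gbp2 in marker-free Camp-high cells, at 1.70 and 3.66 CPM, gave 1.11 (0.25 to 1.98). Marker-free Camp-low cells had 0 UMIs of Gbp2 in wild type and 46.0 CPM in PyMT, which sets a lower bound of 1.01 for the log2 ratio (wild type put at the floor, 3 counts). All wild-type Camp-low cells had 13 UMIs of Gbp2, from 2 of 56 cells.

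Rtp4 gave the highest ratio of any member in neutrophils. Rtp4, a chaperone of receptors that restricts some viruses, was at 6.98 and 52.6 CPM in wild-type and PyMT neutrophils, from 212 and 2544 UMIs, a ratio of 2.92 (2.71 to 3.12). In Camp-high, Camp-intermediate and Camp-low cells the ratios were 1.70 (1.41 to 2.0), 0.75 (0.40 to 1.11) and 3.09 (1.73 to 4.97). Rtp4 was thus higher in PyMT in every Camp class. In Ace-set-negative monocytes it was at 69.1 and 31.7 CPM, a ratio of −1.12 (−1.49 to −0.75). In Ace-set-positive monocytes it was level, at 62.2 and 65.1 CPM (log2 ratio 0.06, interval −0.26 to 0.40). Xaf1, an antagonist of apoptosis inhibitors, Ifi35 and Parp14, an ADP-ribosyltransferase, gave neutrophil ratios of 0.57, 0.27 and −0.37, and marker-free neutrophils gave 1.28, 0.58 and 0.67.

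**Figure D2:**
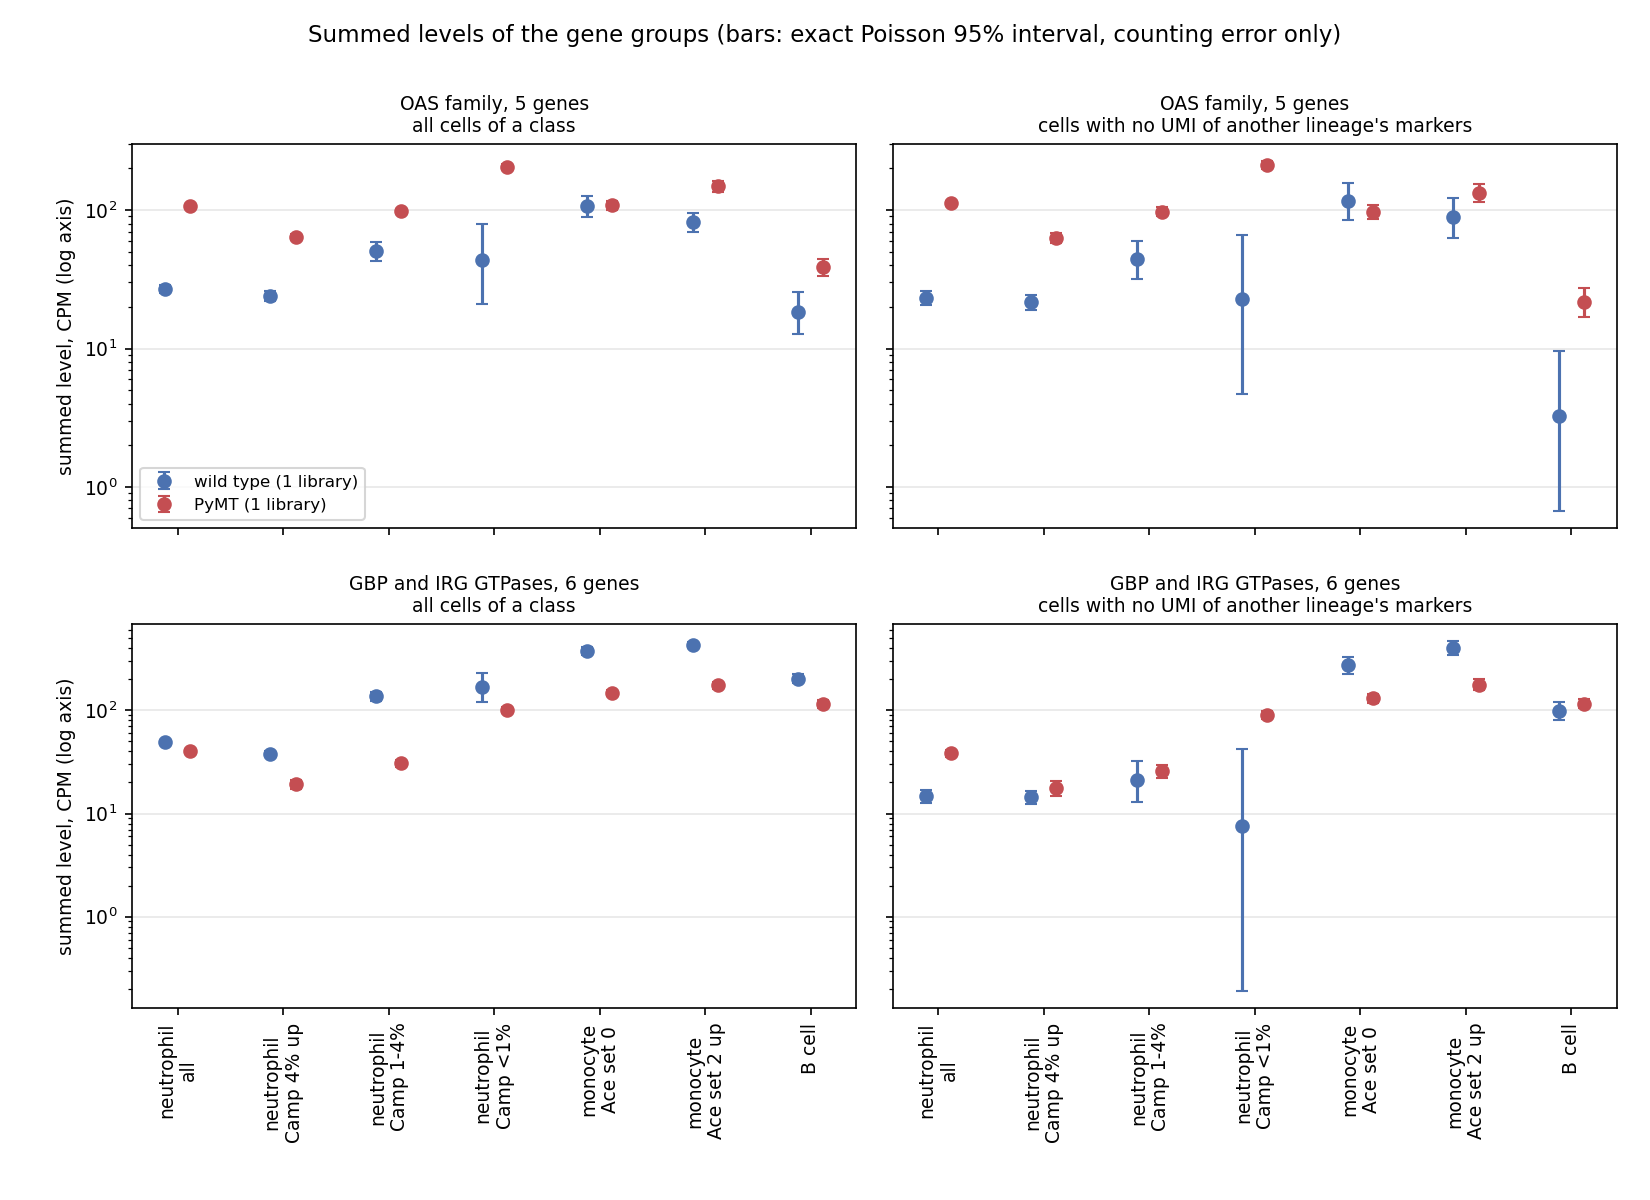
Summed level in CPM (log axis) of the 5 OAS family genes (top) and the 6 GBP and IRG GTPases (bottom) per class and library, for all cells (left) and marker-free cells (right), with exact Poisson intervals. The OAS sums of PyMT lie above wild type in all 4 neutrophil columns, the GTPase sums of PyMT lie below wild type in both monocyte columns, and the marker-free wild-type Camp-low GTPase point rests on 1 UMI.

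Levels also varied between Camp classes inside the PyMT library, a comparison that does not involve wild-type cells. In Camp-low compared with Camp-high PyMT neutrophils, 27 of 33 tested members were at least 1.5-fold higher, 0 were lower, and the median log2 ratio was 1.54. Over all genes this contrast called 26.7% higher and 20.7% lower (median 0.05). Gbp2 was at 3.49 and 48.1 CPM, log2 ratio 3.78 (3.42 to 4.17), in Camp-high and Camp-low cells in that order. Oasl2 was at 12.4 and 114 CPM, log2 ratio 3.20 (3.00 to 3.41), and Isg15 at 9.40 and 66.2 CPM, log2 ratio 2.82 (2.58 to 3.06). All 6 GTPases and all 4 transcription factors were higher in the Camp-low cells. Plscr1 went the other way, at 227 and 163 CPM, log2 ratio −0.48 (−0.56 to −0.40), under the fold used. In marker-free PyMT cells 18 of 24 tested members were higher and 0 were lower (median 1.57), beside 24.4% and 27.6% of all genes (median −0.03). Camp-low PyMT cells were shallower than Camp-high ones, with medians of 4059 and 11556 UMIs. The same contrast in wild type, with only 56 Camp-low cells, had 23 of 31 members higher and 3 lower (median 1.29). All genes there gave 2178 higher and 1382 lower of 8513 (median 0.34). In marker-free wild-type cells 10 of 15 members were higher and 1 was lower, beside 1357 and 1173 of 6354 genes.

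**Figure D3:**
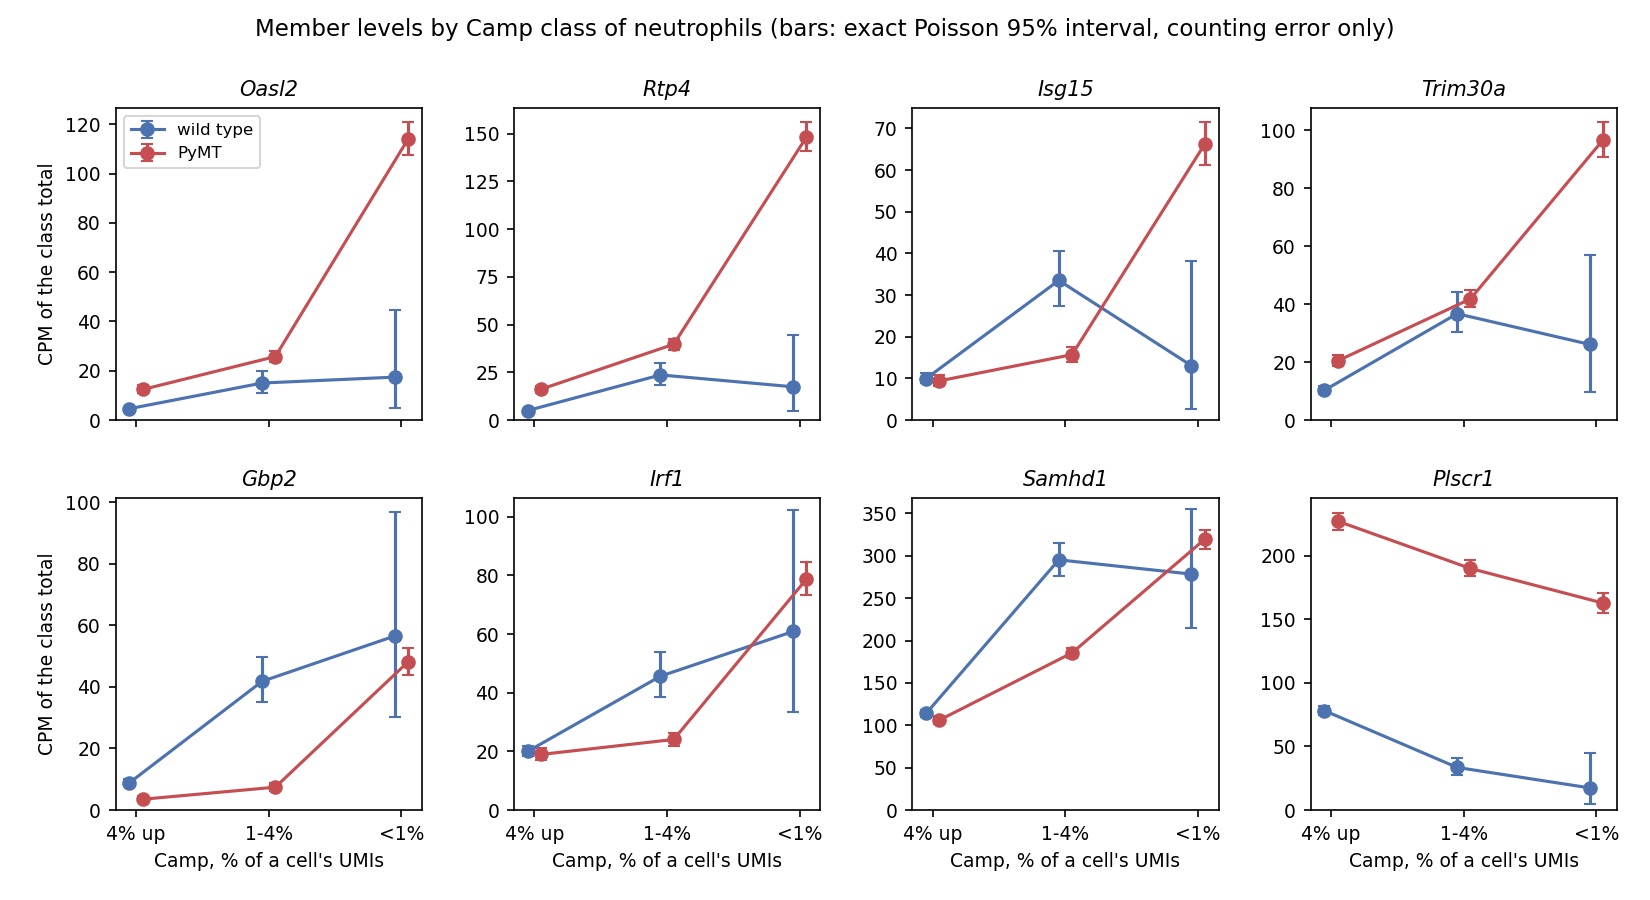
Level in CPM of 8 members in neutrophils with Camp at 4% or more, 1% to 4% and under 1% of UMIs, in wild type (blue) and PyMT (red), with exact Poisson intervals. All PyMT curves but that of Plscr1 are highest in the Camp-low class, Plscr1 is highest in the Camp-high class, and the wild-type Camp-low points have wide intervals because they come from 56 cells.

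Plscr1 was higher in PyMT within each Camp class. Plscr1 was at 78.2 and 227 CPM in Camp-high cells (log2 ratio 1.54, interval 1.46 to 1.62), 33.5 and 190.1 CPM in Camp-intermediate cells (log2 ratio 2.50, interval 2.22 to 2.80) and 17.4 and 163 CPM in Camp-low cells (log2 ratio 3.23, interval 1.87 to 5.10). Its ratio was nearly the same in marker-free cells, at 1.58, 2.70 and 3.51. Trim30a was at 26.1 and 96.7 CPM in Camp-low cells (log2 ratio 1.89, interval 0.76 to 3.34). In the opposite direction in Camp-intermediate cells, Ifi47 was at 27.8 and 4.35 CPM (log2 ratio −2.68, interval −3.13 to −2.22), Gbp2 at 41.8 and 7.42 CPM (log2 ratio −2.49, interval −2.85 to −2.14) and Irgm1 at 19.5 and 4.88 CPM (log2 ratio −2.0, interval −2.48 to −1.51). These 3 genes had 2, 2 and 6 wild-type UMIs in the marker-free Camp-intermediate cells, too few to follow. In Camp-high cells Gbp2 was at 8.84 and 3.49 CPM (log2 ratio −1.34, interval −1.75 to −0.95) and Zbp1 at 8.36 and 4.57 CPM (log2 ratio −0.87, interval −1.24 to −0.51), whereas marker-free cells gave 1.11 and 1.14. Ifi47 in Camp-low cells had 11 and 66 UMIs (log2 ratio −2.86, interval −3.79 to −1.79). The GBP and IRG GTPases together had 39 wild-type UMIs in Camp-low cells and 1 in marker-free Camp-low cells. Ifi47 could therefore not be followed in marker-free cells of that class.

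The share of neutrophils in each Camp class differed between the libraries, and this bears on the whole-class values. Of 3980 wild-type and 5488 PyMT neutrophils, 56 and 2057 were Camp-low, and 3456 and 1619 were Camp-high. As shares of all kept cells of a library, Camp-low neutrophils were 1.02% and 22.5%, and Camp-high ones were 62.9% and 17.7%. Isg15 had ratios of −0.08 (−0.36 to 0.19) in Camp-high and −1.10 (−1.42 to −0.76) in Camp-intermediate cells beside 0.93 over all neutrophils. In marker-free cells these ratios were 0.42 and 0.63, beside 1.97 over all marker-free neutrophils. Oas1a and Rtp4 were past the fold in each Camp class as well as over all neutrophils.

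Most members were not past the fold between the 2 monocyte classes of a library, though in PyMT the share of higher members exceeded that of all genes. In PyMT, Ace-set-positive over Ace-set-negative monocytes had 6 of 33 members higher and 1 lower (all genes 5.87% and 4.21%), with a median of 0.35. In wild type the same contrast had 1 of 25 higher and 3 lower (all genes 7.28% and 5.53%), with a median of −0.13. The PyMT class without Ace, Treml4 and Adgre4 thus held the lower member sum, 1484 CPM, beside 1890 CPM in the Ace-set-positive PyMT class, while the wild-type classes stood at 2227 and 2171 CPM. In marker-free PyMT cells 7 of 27 members were higher and 1 was lower, beside 432 and 322 of 5826 genes (member median 0.33). Marker-free wild-type cells gave 2 and 0 of 11, beside 223 and 172 of 1947 genes (member median 0.12).

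B cells had the fewest members past the fold among the 7 classes, at 8, but also the fewest tested. Among all genes of that class 9.85% were higher and 7.43% lower, and the count of members changed with several processing settings. Gbp2 was at 49.5 and 10.9 CPM (log2 ratio −2.18, interval −2.69 to −1.69), with 34 of the 94 wild-type UMIs in 5 cells. Ifi47 stood at 46.9 and 25 CPM (log2 ratio −0.91, interval −1.31 to −0.50), and Zbp1 at 41.1 and 21.8 CPM (log2 ratio −0.91, interval −1.35 to −0.48). The wild-type B cell class also held the markers of nonclassical monocytes at 245 and 86.0 CPM, and the PyMT class held erythroid markers, which summed to 12.1 and 2175 CPM. In marker-free B cells Gbp2 had only 2 and 27 UMIs, and Ifi47 and Zbp1 gave −0.47 and −0.12, neither past the fold. Rtp4 in marker-free B cells rested on 2 and 73 UMIs (log2 ratio 3.33, interval 1.43 to 6.40), and Gbp3 gave 1.37 (0.43 to 2.48).

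In all cells of the classes, 3 members were higher in one class and lower in another, each past 1.5-fold with both counting intervals clear of 0. Isg15 had a ratio of 2.34 (0.79 to 4.62) in Camp-low neutrophils, from 3 and 662 UMIs, and −1.50 (−1.81 to −1.19) in Ace-set-negative monocytes. Rtp4 had 3.09 (1.73 to 4.97) in Camp-low neutrophils and −1.12 (−1.49 to −0.75) in Ace-set-negative monocytes. Isg20 had 1.03 (0.66 to 1.40) in Camp-high neutrophils and −1.08 (−1.80 to −0.32) in Ace-set-negative monocytes. The higher class was thus Camp-low neutrophils for Isg15, all 3 Camp classes for Rtp4 and Camp-high neutrophils for Isg20, and Ace-set-negative monocytes were a lower class for each of the 3. Isg15 was also lower in Camp-intermediate neutrophils (log2 ratio −1.10, interval −1.42 to −0.76), so that in all cells it went opposite ways within the neutrophils as well. That lower value did not hold in marker-free Camp-intermediate cells, which gave 0.63, and TMM scaling gave −0.36, under the fold. Between Camp-low neutrophils and Ace-set-negative monocytes, Isg15 and Rtp4 kept both directions in marker-free cells. Isg20 had 6 and 18 UMIs in marker-free Ace-set-negative monocytes and could not be followed. A further 2 members met the rule in marker-free cells, namely Gbp2, at 1.11 (0.25 to 1.98) in Camp-high neutrophils and −1.25 (−1.81 to −0.67) in Ace-set-positive monocytes, and Gbp3, at 1.37 (0.43 to 2.48) in B cells and −1.44 (−2.06 to −0.82) in Ace-set-positive monocytes. None of these differences between classes has a test, with 1 library a group.

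The same directions were seen per cell in neutrophils and in Ace-set-negative monocytes. Each cell was thinned to 1000 UMIs, so that depth could not set the share of cells with several member UMIs, and no cell was shallower than that. Cells with at least 3 member UMIs of 1000 made up 2.39% (1.94% to 2.91%) of wild-type and 11.3% (10.5% to 12.2%) of PyMT neutrophils, with exact binomial intervals. Camp-low neutrophils gave 5.36% (1.12% to 14.9%) and 20.8% (19.1% to 22.6%), Camp-high ones 1.59% (1.20% to 2.07%) and 3.34% (2.52% to 4.33%), and Camp-intermediate ones 7.91% (5.63% to 10.7%) and 7.67% (6.49% to 8.99%). In Ace-set-negative monocytes the shares were 34.4% (28.1% to 41.2%) and 20% (17.3% to 22.9%), so that here the wild-type share was the higher one with intervals apart. Ace-set-positive monocytes (31.4%, 25.9% to 37.4%, and 27.2%, 23.2% to 31.6%) and B cells (8.00%, 5.46% to 11.2%, and 5.82%, 4.54% to 7.33%) had overlapping intervals. Without thinning, the shares were 42.8% and 87.2% in neutrophils and 91.6% and 96.0% in Ace-set-negative monocytes, so in the latter the order depends on the correction for depth. The unthinned shares were 41.2% and 88% in Camp-high, 54.3% and 90.5% in Camp-intermediate and 44.6% and 83.8% in Camp-low neutrophils, 95.1% and 98.7% in Ace-set-positive monocytes, and 49.3% and 49.7% in B cells.

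**Figure D4:**
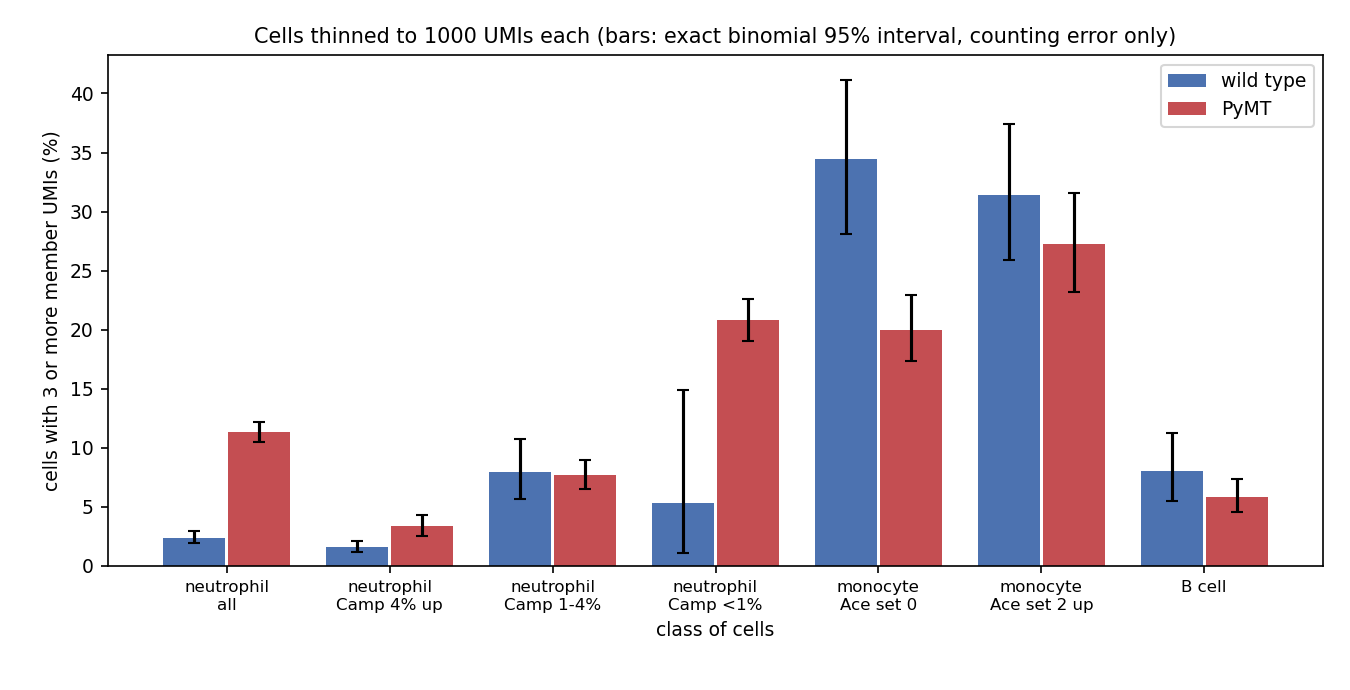
Share of cells (%) with at least 3 member UMIs after thinning each cell to 1000 UMIs, by class, in wild type (blue bars) and PyMT (red bars), with exact binomial intervals. PyMT is higher in neutrophils (11.3% against 2.39%) and lower in Ace-set-negative monocytes (20% against 34.4%), and the intervals overlap in Camp-intermediate neutrophils, Ace-set-positive monocytes and B cells.

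Other genes of the pathway, taken from a list by role, place these values. No interferon gene had 50 UMIs in any class. Ifng had 5 and 5 UMIs in neutrophils, Ifnb1 2 and 0, and Ifnk 12 and 13. Of the 7 receptor and kinase genes, 2 were higher and 2 lower in neutrophils, beside 7.11% higher and 42.6% lower among all genes. Ifngr1, a chain of the interferon gamma receptor, was at 68.0 and 113 CPM (log2 ratio 0.74, interval 0.66 to 0.81), and by Camp class its ratios were 0.09, −0.61 and 1.63, or 0.90, 1.21 and 2.53 in marker-free cells. The kinase gene Tyk2 was at 7.44 and 4.01 CPM (log2 ratio −0.89, interval −1.17 to −0.61).

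Socs3, a feedback inhibitor of cytokine receptors induced through STAT3, was higher in PyMT in all 7 classes. It stood at 7.63 and 132 CPM in neutrophils (log2 ratio 4.11, interval 3.92 to 4.31), at 27.6 and 97.0 CPM in Ace-set-negative monocytes (log2 ratio 1.81, interval 1.33 to 2.34) and at 19.5 and 83.3 CPM in B cells (log2 ratio 2.1, interval 1.61 to 2.62). Socs1, the inhibitor best known for interferon signalling, was at 5.00 and 2.98 CPM in neutrophils (log2 ratio −0.75, interval −1.09 to −0.41). The 2 inhibitors thus differed in direction in neutrophils.

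Of the further interferon-induced genes, 1 of 21 tested were higher and 8 were lower in neutrophils, beside 0 and 3 of 18 in Ace-set-negative and 0 and 6 of 21 in Ace-set-positive monocytes. Over all genes, 7.11% were higher and 42.6% lower in neutrophils, 9.37% and 8.91% in Ace-set-negative and 8.74% and 7.75% in Ace-set-positive monocytes. Parp9, a partner of the ubiquitin ligase DTX3L, was the higher gene in neutrophils (log2 ratio 0.87, interval 0.61 to 1.14). Cxcl10, a chemokine that draws T cells, was at 9.08 and 1.26 CPM in neutrophils (log2 ratio −2.85, interval −3.27 to −2.44) and at 59.0 and 4.12 CPM in Ace-set-positive monocytes (log2 ratio −3.84, interval −4.73 to −3.05). The latter came from 109 UMIs in 34 of 264 wild-type cells and 15 UMIs in 10 of 452 PyMT cells, and 1 wild-type cell held 37. Cxcl9, its relative, was at 3.72 and 0.207 CPM in neutrophils (log2 ratio −4.17, interval −5.27 to −3.24), with 53 of the 113 wild-type UMIs in 1 cell. Ifi27l2a, a gene induced by interferon alpha, was at 217 and 317 CPM in neutrophils (log2 ratio 0.55, interval 0.51 to 0.59) and at 61.7 and 294 CPM in marker-free neutrophils (log2 ratio 2.25, interval 2.15 to 2.36).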

How the data were processed

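Single-cell messenger RNA was measured in sorted CD11b+ Gr1+ spleen cells, 1 library per group. The deposited matrices hold UMI counts per gene and cell, made by the authors with Cell Ranger 2.1.0 on build mm10, per the submitters' processing notes. Other filters are not given in the sources used here. Cells under 200 genes, or over 10% mitochondrial UMIs, were left out (5 PyMT cells). Doublets were called with scanpy 1.11.5 (241 and 670 cells) and left out only as an alternative. UMIs of the 7 classes were summed per library and scaled to the class total in Python 3.11.15 with numpy 2.4.6 and scipy 1.17.1. Levels have exact Poisson intervals and ratios exact conditional intervals. Sums of 0 were set to a floor of 3 counts. The ratio script was tested on simulated data. The members and lists were chosen with earlier results of these data known. Named in a class were the 5 members highest and the 5 lowest by the interval bound nearest 0, members past the fold in opposite directions, and up to 4 genes of each other list, and other members were named for their role. Alternatives were TMM (edgeR 4.0.16) and median-of-ratios scaling, equal weight per cell, totals that leave out the top 50 genes, thinning to 1000 UMIs, cell filters, doublets, stricter classes, UMI minimums of 10 and 200, marker-free cells and members with UMIs in both libraries. Promoter sequences are from RefSeq (GRCm38.p6), and figures were drawn with matplotlib 3.10.9.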

Additional observations from a re-analysis of the deposited data

Results flagged for a closer look

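In marker-free cells 4 members were higher in PyMT in one class and lower in another, with both counting intervals clear of 0, and the difference between classes was not tested. Isg15 had a log2 ratio of 2.09 in Camp-low neutrophils and −0.97 in Ace-set-negative monocytes. Rtp4 had 3.33 in B cells, from 2 and 73 UMIs, and −1.26 in Ace-set-negative monocytes. Gbp2 had 1.11 in Camp-high neutrophils and −1.25 in Ace-set-positive monocytes. Gbp3 had 1.37 in B cells and −1.44 in Ace-set-positive monocytes. Cells outside all classes, which the comparisons do not use, also held members, at 1196 CPM in 1296 PyMT cells and 867 CPM in 718 wild-type cells.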

How the results depend on the processing

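All counts and medians below are for the members, PyMT over wild type, and none has a test. No paired analysis was possible because each group is 1 library, and for the same reason no replicate was left out. Scaling to totals without the 50 most abundant genes, using no cell filter, and keeping only members with UMIs in both libraries changed none of the 21 counts and medians beyond its margin.

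In neutrophils the median of 0.44 became 0.89 with TMM, 0.91 with median of ratios, 1.06 with equal weight per cell, 0.74 with cells thinned to 1000 UMIs, 0.73 with stricter classes and 1.15 in marker-free cells. The 15 higher members became 23 with TMM, 23 with median of ratios and 24 in marker-free cells, and the 4 lower became 1 when thinned and 0 in marker-free cells. In Camp-high neutrophils the median of −0.08 became 0.37 with either scaling and 0.66 in marker-free cells, and the 8 lower members became 4 with either scaling, 2 with equal weight, 5 with stricter classes and 0 in marker-free cells. In Camp-intermediate neutrophils the median of −0.67 turned to 0.062 with TMM and 0.76 in marker-free cells, and was −0.10 with median of ratios, −0.056 with stricter classes and −0.11 with a minimum of 200 UMIs. The 7 higher became 14, 12 and 12 with TMM, median of ratios and marker-free cells. The 16 lower became 9 with TMM, 10 when thinned, 10 with stricter classes, 9 with 200 UMIs and 0 in marker-free cells. In Camp-low neutrophils the 13 higher became 6 when thinned, and the 7 lower became 4 with TMM, 2 with stricter classes, 0 with 200 UMIs and 1 in marker-free cells.

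In Ace-set-negative monocytes the 2 higher became 4 when thinned and 0 with 200 UMIs, and the 14 lower became 8 with 200 UMIs and 9 in marker-free cells. In Ace-set-positive monocytes the 3 higher became 6 when thinned, 7 with 10 UMIs and 1 in marker-free cells, and the 7 lower became 11 with stricter classes and 4 with 200 UMIs. In B cells the 3 higher became 7 when thinned, 0 with stricter classes, 8 with 10 UMIs and 0 with 200 UMIs. The 5 lower there became 3 with equal weight, 8 with the stricter cell filter (500 genes, 5% mitochondrial UMIs), 10 without doublet-like cells, 2 with 200 UMIs and 1 in marker-free cells. Stricter classes left 29 and 13 PyMT monocytes and 55 PyMT B cells. Changes of minimum change how many members are tested, and for the other settings the cause was not tested. Depth limits the Camp-low comparison most, since its wild-type cells hold 229891 UMIs in all.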
